A study of Caenorhabditis elegans with 2 samples.

Results

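The DNA replication and cell cycle genes of Caenorhabditis elegans were examined for chromatin sites of the zinc-finger protein ZTF-7. The 44 genes were picked by a name rule, as all protein-coding genes of the Ensembl annotation of assembly WBcel235 whose names start with mcm-, orc-, cdc-, cye-, cyb-, cyd-, cki-, rnr- or rfc-, plus pcn-1, out of 19985 protein-coding genes. The rule was set with earlier results of these data known. The measurements came from chromatin immunoprecipitation and sequencing (ChIP-seq), which recovers and sequences DNA held by a tagged protein. There was 1 group of 2 biological replicates, both of whole, mixed-sex L4 larvae of strain OP332, with the genotype unc-119(tm4063) III; wgIs332. In this strain an integrated transgene gives eGFP-tagged ZTF-7 in an unc-119 mutant background, and the promoter that drives it is not named in the labels. Without a control sample or another condition in the data used here, whether a peak is particular to ZTF-7 was not tested. In whole larvae, binding in few cells and weak binding in many cells cannot be told apart.

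Replication starts where the origin recognition complex, with CDC-6, loads the MCM helicase onto DNA. Cyclin-dependent kinases and the CDC-7 kinase then fire the origins, and the sliding clamp PCNA, opened by its loader RFC, keeps the polymerases on the template. In many animals the E2F-DP transcription factor raises these genes together as cells leave G1, and in L4 larvae the germ line and some somatic lineages are still dividing. The name rule also takes in cdc-42, cdc-37, cdc-73, cdc-5L, cdc-50.B and mcm-3AP, 6 genes best known for cell polarity, Hsp90 chaperone work, transcription elongation, splicing, lipid transport and, from human cells, mRNA export. None of these 6 had a peak past the authors' reproducibility threshold within 1000 bp of the 5' end. Such a peak was present at 5.61% of all protein-coding genes, so 0 of 6 is near the background. In the list from the pooled replicates, 4 of the 6 had a region, as did 22 of all 44 genes.

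Each gene was scored by the strongest region whose summit lay within 1000 bp of its annotated 5' end, in each of 4 lists on build ce11, which is WBcel235. The authors' list of peaks past the irreproducible discovery rate (IDR) threshold held 1311 peaks. Those peaks are the strongest part of a list of 30000 regions from the pooled replicates, and each replicate also had its own list of 30000 regions. These long lists were deposited as peaks and background together, so their low ranks include background. The signal value of a region is the peak caller's own and was compared only within a list, so ranks (1 is the strongest) are given beside it and no SD is given across replicates. The read depth of the lists is unknown. According to the labels the replicates are biological, and nothing more is known of how they differ. Beside ztf-7 itself, the tagged gene, an IDR peak ranked 355 and had its summit at a distance of 350 bp (ranks 403 and 448 in replicates 1 and 2), and unc-119 had no region in any list.

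Of the 44 genes, 5 (11.4%) had an IDR summit within 1000 bp, namely cdc-48.1, rfc-4, pcn-1, cye-1 and cdc-14, against 5.61% of all protein-coding genes. All 44 genes lie on autosomes, where the share of coding genes was 5.45%. In the pooled list 22 of the 44 (50%) had a region, against 40.2% of coding genes. The shares were 33 of 44 (75%) against 47.3% in replicate 1, and 22 of 44 (50%) against 40.8% in replicate 2. A region was present in each of the replicates at 21 genes (47.7%, against 30.6%) and in replicate 1 alone at 12 (27.3%, against 16.7%). No list held a region for 9 genes (20.5%, against 41.6%). No test was made of the differences between the gene group and the rest.

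**Figure D1:**
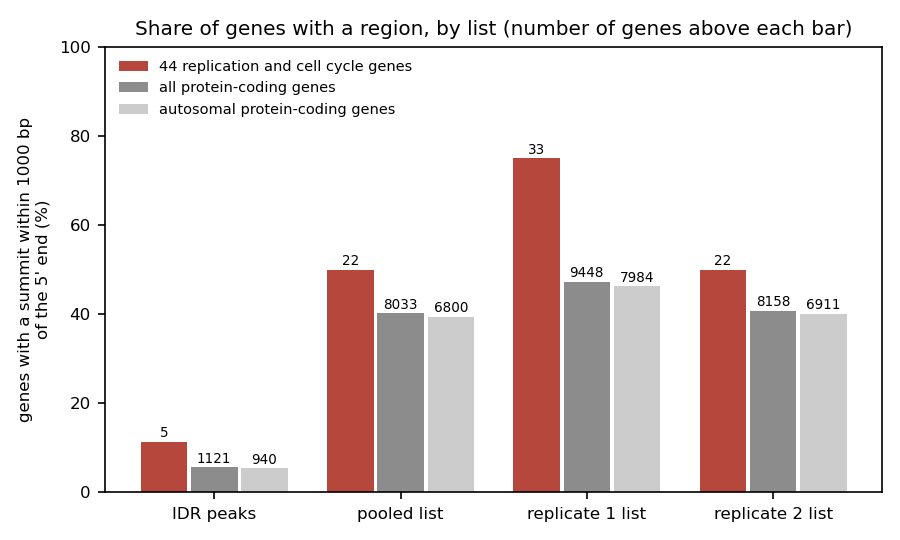
Bars show the percentage of genes scored with a region in each of the 4 lists (summit no more than 1000 bp from the 5' end), for the 44 replication and cell cycle genes, all protein-coding genes and the autosomal ones, with the number of genes above each bar. The gene group is above both backgrounds in each list, and its share is highest in replicate 1, where 33 of 44 genes have a region.

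The DNA under the summits is shown for 6 genes, because 4 of them hold the IDR peaks at the group for which sequence is printed and the other 2, orc-1 and mcm-3, hold an E2F-type word beside a weaker summit. The mcm-4 window also holds such a word and has a GC content of 58.4%, but its sequence is not printed. Each run is 101 bases of WBcel235 from the RefSeq copy of the assembly, centred on the pooled summit and read 5′ to 3′ on the strand of the gene. Capitals mark the words searched for on both strands, which were the 4 E2F-type words TTTCCCGC, TTTGGCGC, TTTCGCGC and TTTGCCGC, the word GAGAGA, and TTCGCGC, which lies inside the third of the E2F-type words and was added after the sequences were read.
cdc-48.1, chrII:10563519-10563619, minus strand: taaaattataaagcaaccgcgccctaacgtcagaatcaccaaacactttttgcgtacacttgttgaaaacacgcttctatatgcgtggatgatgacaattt
rfc-4, chrIII:6972036-6972136, plus strand: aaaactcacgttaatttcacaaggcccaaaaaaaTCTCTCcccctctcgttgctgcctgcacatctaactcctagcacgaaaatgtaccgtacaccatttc
pcn-1, chrIV:4049643-4049743, minus strand: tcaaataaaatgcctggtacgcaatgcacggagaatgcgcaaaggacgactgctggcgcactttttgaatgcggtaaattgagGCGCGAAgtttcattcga
cdc-14, chrII:5593750-5593850, minus strand: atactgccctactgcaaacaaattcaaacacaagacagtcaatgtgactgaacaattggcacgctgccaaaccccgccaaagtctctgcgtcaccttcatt
orc-1, chrIII:10642967-10643067, plus strand: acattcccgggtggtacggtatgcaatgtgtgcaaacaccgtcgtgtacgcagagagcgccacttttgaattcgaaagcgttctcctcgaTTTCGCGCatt
mcm-3, chrV:15059731-15059831, minus strand: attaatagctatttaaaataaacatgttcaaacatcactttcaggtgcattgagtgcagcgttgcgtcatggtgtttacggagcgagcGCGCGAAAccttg

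The rfc-4 window holds GAGAGA on the minus strand. The pcn-1 window holds only the short core, and the cdc-48.1 and cdc-14 windows hold none of the words. The GC content of the 6 windows ran from 38.6% at cdc-48.1 to 51.5% at orc-1. The median was 43.6% over the 22 pooled summits at the gene group, 30.7% over the 29977 nuclear pooled summits and 45.5% over the 1289 nuclear IDR summits. Unlike the 22, the nuclear sets were not limited to summits near coding genes.

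The strongest peak of the group lay upstream of cdc-48.1, which encodes a p97-type ATPase that extracts ubiquitinated proteins from complexes, the replication machinery among them. Its signal was 238.5 in the pooled list (rank 45), 68.8 in replicate 1 (rank 87) and 171.8 in replicate 2 (rank 37). The peak spans chromosome II from 10563462 to 10563663, and its intergenic summit lay 162 bp upstream of the 5' end. The replicate summits fell 2 and 5 bp from the pooled one, so the site was placed alike and ranked high in each replicate. The snoRNA gene C06A1.9 starts inside cdc-48.1, 505 bp from the summit. The paralogue cdc-48.2 had a weaker pooled region (signal 31.8, rank 3162) 275 bp upstream, with ranks 3597 and 6158 in the replicates, and cdc-48.3, a related ATPase gene, had no region in any list.

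The sliding clamp and its loader held both of the strongest peaks at core replication genes. At rfc-4, a clamp loader subunit gene, the signal was 118.9 in the pooled list (rank 152), 32.6 in replicate 1 (rank 626) and 83.0 in replicate 2 (rank 114). This peak, on chromosome III from 6971924 to 6972247, has its intergenic summit 167 bp upstream of rfc-4. The same summit lies 374 bp upstream of the divergent eef-1A.1, a translation elongation factor gene, and 1 bp from the 5' end of the microRNA gene cel-mir-5549. Which of these 3 genes the peak belongs to cannot be read from its position. At pcn-1, the gene for PCNA, the signal was 92.9 in the pooled list (rank 278), 39.5 in replicate 1 (rank 398) and 54.7 in replicate 2 (rank 304). The pooled peak, on chromosome IV from 4049681 to 4049777, was 97 bp wide and its summit was intergenic, 245 bp upstream of pcn-1, with no other annotated 5' end within 1000 bp apart from any piRNA genes, which were not considered. Its rank was much the same in all 3 lists.

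The remaining clamp loader genes stood well below the IDR threshold. Pooled regions at rfc-1 and rfc-2 ranked 4442 and 6440, and rfc-3 had a region only in replicate 1, at rank 4690. The rfc-1 summit lay nearer to the 5' end of the divergent pmp-3 (282 bp) than to that of rfc-1 (478 bp).

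**Figure D2:**
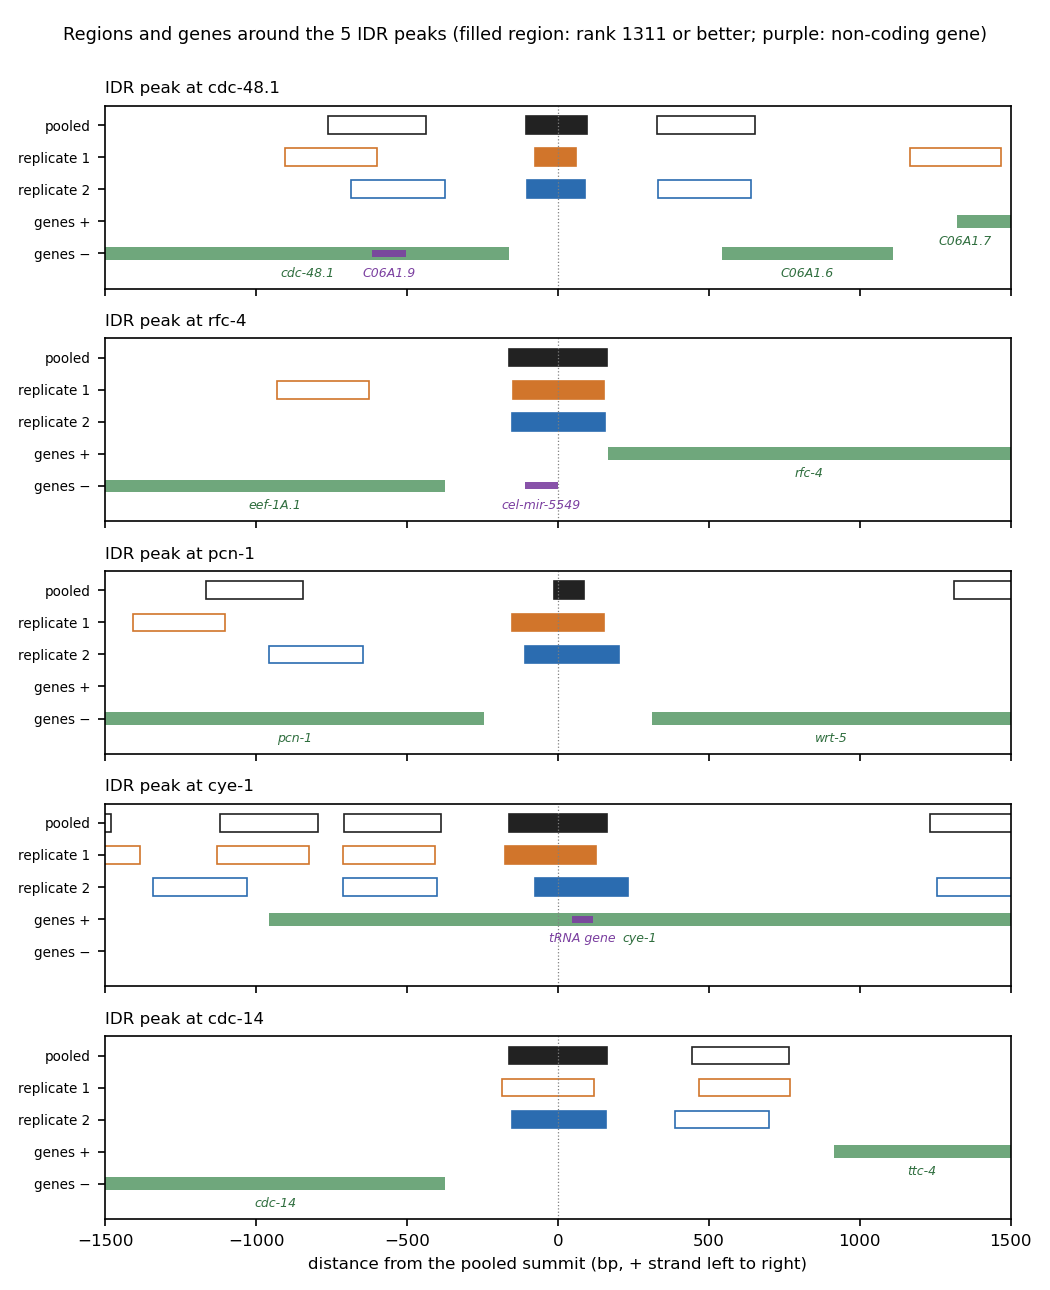
Each panel maps the regions of the pooled, replicate 1 and replicate 2 lists and the annotated genes on both strands around an IDR peak of the group, against the distance in bp from the pooled summit. Filled regions rank 1311 or better in their list, and purple marks non-coding genes. At cye-1 the filled regions lie over a tRNA gene inside cye-1, and at rfc-4 they lie between rfc-4 and eef-1A.1.

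No origin recognition or MCM gene had an IDR peak, and with 5.61% of coding genes having one, a count of 0 among so few genes is near the background. The pooled regions of orc-1 and mcm-4 stood nearest to the threshold, and the next, that of mcm-3, ranked 3318. The weakest IDR peak had a signal of 49.2 and the weakest at the group, that of cdc-14, had 66.4. The strongest regions of the group below the threshold were at cdc-7 (44.6, rank 1602), orc-1 (44.5, rank 1605) and mcm-4 (42.6, rank 1755). At orc-1, which encodes an ORC subunit, the replicate signals were 14.4 (rank 3131) and 31.9 (rank 1359), with the replicate summits 3 bp and 0 bp from the pooled one. That summit, 112 bp upstream, is also 152 bp upstream of the divergent dehydrogenase gene dhs-11. At mcm-4, a helicase subunit gene on chromosome I, the replicate signals were 17.2 (rank 2301) and 23.0 (rank 3228), and the summit lay 150 bp upstream. Neither gene was among the 1311 strongest regions of either replicate.

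All 6 genes of the MCM2 to MCM7 helicase, all 5 ORC genes and all 5 clamp and loader genes had a region in replicate 1. In replicate 2 a region was present at 3, 3 and 4 of them. Over all coding genes the shares were 47.3% in replicate 1 and 40.8% in replicate 2. The 16 genes thus split into 10 with a region in each replicate and 6 seen in replicate 1 alone. Of their replicate 1 summits, those of orc-4 (109 bp) and rfc-3 (767 bp) lay downstream of the 5' end. Among the 10, the scored regions of the replicates did not overlap at orc-3 and orc-4, where the summits lay 890 and 751 bp apart. A weaker region overlapped the pooled one there, in replicate 2 at orc-3 (rank 17114) and in replicate 1 at orc-4 (rank 17549). The 6 genes seen in replicate 1 alone also had none in the pooled list. The 6 were orc-2 (rank 22865), orc-5 (4422), mcm-5 (11345), mcm-6 (5769), mcm-7 (3207) and rfc-3. The orc-5 region is shared with cyb-1, a cyclin B gene that starts on the other side of it. Among the other 28 genes, 17 had a replicate 1 region and 12 a replicate 2 region, the second count being close to the share over all coding genes. Pooled ranks of the remaining helicase and ORC genes were 3318 for mcm-3, 6808 for mcm-2, 5588 for orc-3 and 7139 for orc-4. The divergent C25D7.15 starts 27 bp from the mcm-3 summit, nearer than mcm-3 at 182 bp, and the orc-4 summit lay in an intron of its neighbour orc-1. The pooled region of mcm-10, whose product helps to activate the helicase, ranked 4369 and had its summit in an intron of teg-1. The mcm-3AP region, at rank 20115, was the weakest pooled region of the group, with the 5' end of the snoRNA gene F20D12.10 118 bp from its summit and that of the coding gene F20D12.12 at 849 bp.

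**Figure D3:**
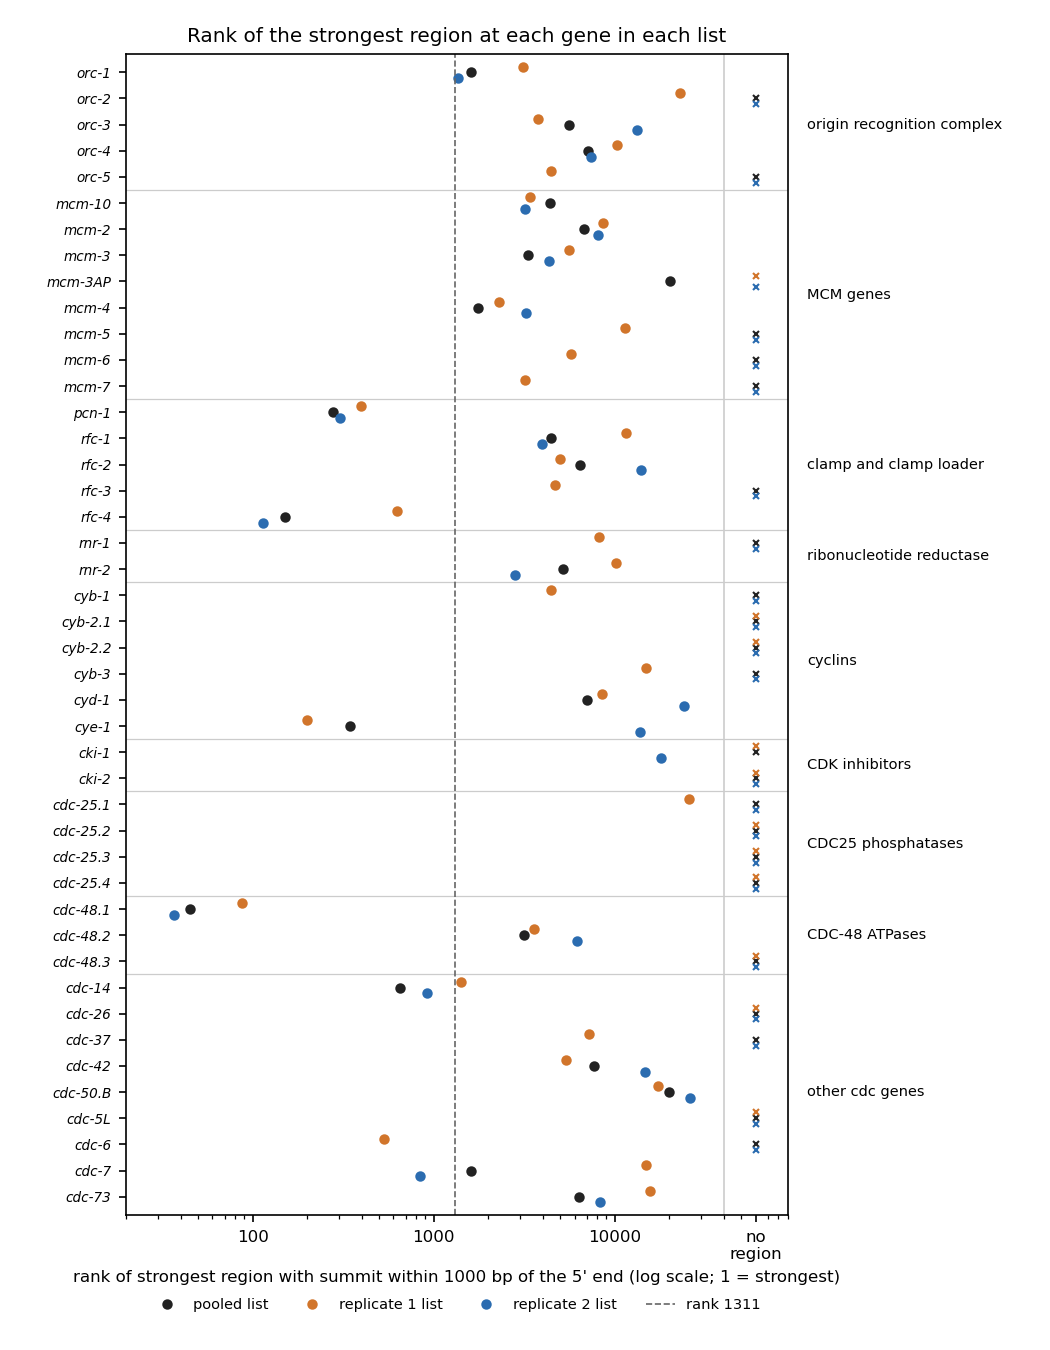
Points give the rank of the strongest region at each of the 44 genes (log scale) in the pooled, replicate 1 and replicate 2 lists, ordered by role, and crosses at the right mark lists with no region within 1000 bp. The dashed line is rank 1311, the number of IDR peaks. Among ORC and MCM genes no point lies left of the line, while cdc-48.1, rfc-4 and pcn-1 lie left of it in all 3 lists.

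Ribonucleotide reductase, which makes deoxyribonucleotides, had weak regions. For rnr-2, the small subunit gene, the pooled region ranked 5209, with a summit 329 bp upstream, and the large subunit gene rnr-1 had a region in replicate 1 alone, at rank 8187.

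The cyclin genes differed widely. At cye-1, the gene for cyclin E, which drives entry into S phase, the IDR peak had a signal of 86.6 (rank 346) and spanned chromosome I from 6781596 to 6781919. Its summit was not upstream of the gene but in an intron, 959 bp downstream of the 5' end and 952 bp from the nearest 5' end of any cye-1 transcript. It lay 45 bp from the 5' end of an intronic tRNA gene, WBGene00022955. In replicate 1 the overlapping region had a signal of 49.96 (rank 200). In replicate 2 it had 41.3 (rank 656), with its summit 78 bp from the pooled one, which put it past the 1000 bp window. The region scored for cye-1 in replicate 2 was therefore another, of rank 13849. For cyd-1, the cyclin D gene, the pooled region ranked 7072 and lay 116 bp upstream, with ranks 8507 and 24022 in the replicates. The cyclin B genes had none in the pooled list. Replicate 1 had weak regions for cyb-1 (rank 4422) and cyb-3 (rank 14856), and none of the lists had any for cyb-2.1 or cyb-2.2.

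The CDC25 and CDK inhibitor genes, 6 in all, had a weak region at 1 gene each and none in the pooled list, and 4 of the 6 had no region in any list, against 41.6% of coding genes. Of the 4 genes for CDC25 phosphatases, which remove the inhibitory phosphate from these kinases, cdc-25.1 had a region in replicate 1 at rank 25622, and cdc-25.2, cdc-25.3 and cdc-25.4 had none. Of the CDK inhibitor genes, cki-1 had a region in replicate 2 at rank 18091 and cki-2 had none.

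Among the other cdc genes, cdc-14, cdc-7 and cdc-6 had strong regions in at least 1 replicate. At cdc-14, which encodes a phosphatase that opposes cyclin-dependent kinases, the signal was 66.4 in the pooled list (rank 655), 22.5 in replicate 1 (rank 1409) and 36.9 in replicate 2 (rank 919). The peak, on chromosome II from 5593638 to 5593961, had an intergenic summit 373 bp upstream of cdc-14 and 914 bp from the 5' end of the divergent ttc-4. It was close to the middle of the IDR list, whose median signal was 66.4. At cdc-7, which encodes the origin-firing kinase, the region ranked 839 in replicate 2 and 14891 in replicate 1, and both summits lay within 10 bp of the pooled one. At cdc-6, which encodes the MCM loading factor, the opposite held. A replicate 1 region of signal 34.8 (rank 530), on chromosome I from 4270403 to 4270706, had no overlapping region in either the pooled or the replicate 2 list. Its summit lay 268 bp upstream of cdc-6 and 111 bp from the 5' end of the divergent acin-1. Regions at cdc-73 (rank 6333 in the pooled list), cdc-42 (7700) and cdc-50.B (19866) were weak, that at cdc-37 was seen only in replicate 1 (rank 7174), and cdc-26, which encodes a subunit of the anaphase-promoting complex, had none, nor had cdc-5L. The non-coding RNA gene R07G3.14 starts 25 bp from the cdc-42 summit.

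Counted by replicate, 5 genes (11.4%) were among the 1311 strongest regions of replicate 1 and 5 among those of replicate 2, against 5.13% and 5.42% of coding genes. The genes were not all the same. Only cdc-48.1, rfc-4 and pcn-1 were in both sets (6.82%, against 2.88%), with cye-1 and cdc-6 in replicate 1 alone and cdc-14 and cdc-7 in replicate 2 alone. For cye-1 this rests on the window, as its peak ranked high in each replicate. At the 21 genes with a region in each replicate, the scored regions overlapped by at least 1 bp in 14 (66.7%), against 62.9% of 6120 coding genes. Where they overlapped, the summits differed by a median of 42 bp. Spearman's rho between the signals of the replicates was 0.458 over the 21 genes and 0.588 over the 6120, given as a description because regions share their libraries.

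Summits at the group lay mostly just upstream. Of the 22 pooled summits, 21 (95.5%) were upstream of the 5' end, against 71.8% over all coding genes with a pooled region, and cye-1 was the exception. Within 500 bp upstream lay 18 (81.8%), against 49.1%. The median distance was 258.5 bp, against 340 bp. In replicate 1, 25 of 33 summits (75.8%) were upstream, against 69.8%, and in replicate 2, 20 of 22 (90.9%), against 70.1%. Within 500 bp upstream lay 72.7% in each replicate, against 48.6% in replicate 1 and 46.3% in replicate 2. Among IDR peaks the upstream share was not higher: 4 of 5 summits (80.0%) were upstream, against 88.0%. The same 4 lay within 500 bp upstream, against 69.8%, and both shares rest on 5 genes only. The median distance there was 245 bp, against 252 bp. Summits were intergenic at 19 of the 22 and intronic at 3, and none lay in a coding exon. These shares were not computed over all coding genes with a pooled region, so whether they are particular to the group is unknown. Annotated 5' ends in this animal can be trans-splice sites rather than transcription starts, so the distances are to annotated ends.

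**Figure D4:**
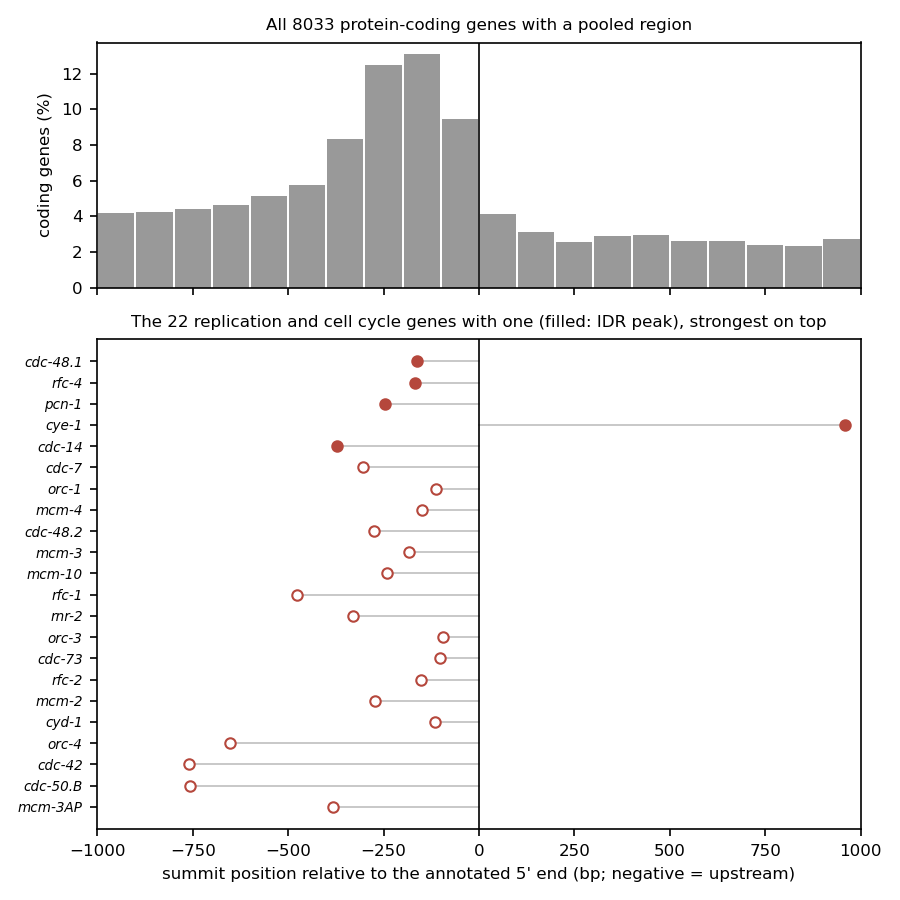
The upper panel gives the percentage of the 8033 protein-coding genes with a pooled region in each 100 bp step of summit position, in bp from the annotated 5' end with negative values upstream. The lower panel gives the summit position at each of the 22 genes of the group with a pooled region, filled for IDR peaks. All but cye-1 are upstream, 18 of them within 500 bp.

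Some summits lay beside more than 1 gene, and the share of such summits over all coding genes was not computed. Another coding 5' end lay within 1000 bp of the summit at 9 of the 22 genes, and it was the nearer one at mcm-3 and rfc-1. A non-coding gene other than piRNA genes started within 1000 bp at 6 and was nearer than the gene of the group at 4, namely rfc-4, cye-1, cdc-42 and mcm-3AP. Of the 5 IDR peaks, 3 had a tRNA, snoRNA or microRNA 5' end within 1000 bp (cye-1, cdc-48.1 and rfc-4), against 14.4% of the 846 IDR peaks near coding genes. A coding gene starts on the opposite strand within 1000 bp upstream at 13 of the 44 genes (29.5%), against 17.7% of all coding genes. Such a neighbour was present at 5 of the 22 genes with a pooled region (22.7%) and at 8 of the 22 without one (36.4%). A coding gene on the same strand ended within 500 bp upstream at 8 of the 44 genes (18.2%), against 18.1% of all coding genes. This held at 2 of the 22 genes with a pooled region (9.09%) and at 6 of the 22 without one (27.3%). Whether such spacing bears on which genes lack a region was not tested.

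E2F-type words were frequent in the promoters of the group, taken from 250 bp before to 50 bp after the 5' end. At least 1 of the 4 words was found at 15 of 44 genes (34.1%), against 4.7% of 19973 nuclear coding genes. By word, the counts were 4 genes for TTTCCCGC (9.09%, against 1.57%), 4 for TTTGGCGC (9.09%, against 0.946%), 6 for TTTCGCGC (13.6%, against 1.15%) and 2 for TTTGCCGC (4.55%, against 1.22%). The median GC content of the windows was 35.2%, against 34.2%. GAGAGA was found at 13 genes (29.5%, against 21.8%). A word was held by 5 of the 6 genes of the MCM helicase, all but mcm-2, by both rnr-1 and rnr-2, and by pcn-1, rfc-1 and rfc-2. Others with a word were orc-1, cdc-7, cyd-1, cdc-25.2 and cki-2.

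Genes with and without a word both had regions. Of the 15 genes with a word, 1 had an IDR peak (pcn-1), 9 a pooled region, 13 a replicate 1 region and 9 a replicate 2 region. Of the 29 without, 4 had an IDR peak, 13 a pooled region, 20 a replicate 1 region and 13 a replicate 2 region. Over all 939 coding genes with a word, 8.63% had an IDR peak, 43.2% a pooled region, 54.2% a replicate 1 region and 43.2% a replicate 2 region, against 5.61%, 40.2%, 47.3% and 40.8% of all coding genes. Within 50 bp of the pooled summit a word lay at 3 of 22 genes (13.6%), orc-1, mcm-4 and mcm-3, and in each case it was TTTCGCGC. That share was 1.53% over the nuclear pooled summits and 3.1% over the nuclear IDR summits. Those sets were not limited to summits near coding genes, as the 22 were, and the share over pooled summits near coding genes was not computed. The difference therefore cannot be told apart from the words being frequent in the promoters of the group. A word match describes the letters and is not evidence that a factor was bound there.

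**Figure D5:**
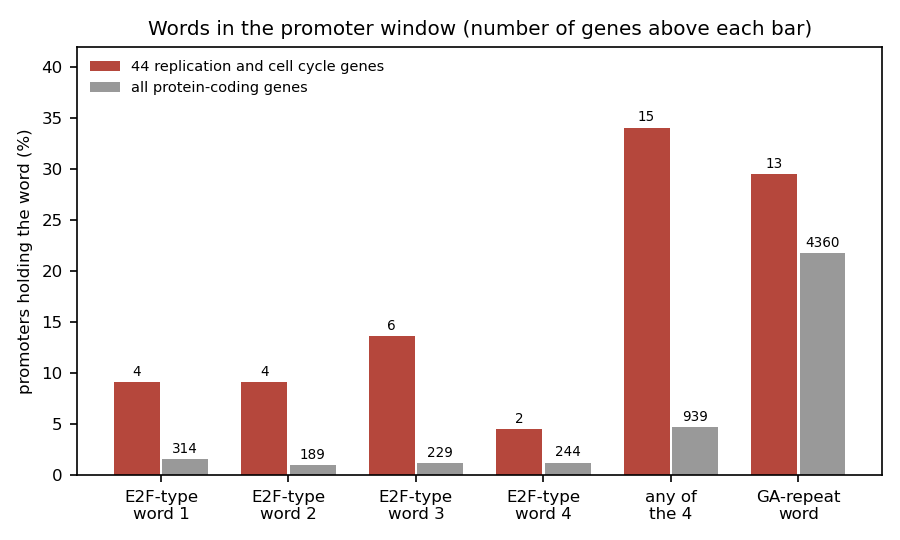
Bars give the percentage of promoter windows (250 bp before to 50 bp after the 5' end) that hold each word on either strand, for the 44 genes and for all nuclear protein-coding genes, with the number of genes above each bar. Words 1 to 4 are the E2F-type words in the order listed in the text, and any of the 4 was found at 15 of 44 genes against 4.7% of coding genes.

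Other genes of replication and the cell cycle, a list of 66 names outside the name rule of which 63 were in the annotation, was counted in the same way. An IDR summit lay within 1000 bp of 5 of the 63 (7.94%), a pooled region of 35 (55.6%), a replicate 1 region of 44 (69.8%) and a replicate 2 region of 34 (54.0%). Over all coding genes these shares were 5.61%, 40.2%, 47.3% and 40.8%, so the IDR share of the list was near the background. The 5 were tim-1, efl-1, mdf-2, lin-23 and dpl-1. The efl-1 gene, which encodes an E2F subunit, had a signal of 95.4 (rank 255, and ranks 378 and 564 in the replicates) with the summit 203 bp upstream. The coding gene fbxa-90 starts 936 bp from that summit. The partner gene of efl-1, dpl-1, for the DP subunit, had 54.6 (rank 1024, and ranks 1091 and 1680) with the summit 233 bp upstream. The tim-1 peak (116.9, rank 156) lay 280 bp upstream of this gene for a Timeless-family protein. It was 21 bp from the start of the spliced leader gene sls-2.8. Also nearer than tim-1 were the non-coding RNA gene Y75B8A.49, at 128 bp, and the coding gene Y75B8A.23, at 216 bp. The mdf-2 peak (61.4, rank 799) lay 42 bp upstream of this spindle checkpoint gene and 143 bp from nduv-3, and the lin-23 peak (60.1, rank 830), by a gene for an F-box protein of a cell cycle ubiquitin ligase, lay 924 bp upstream, nearer to the non-coding RNA gene linc-27 (502 bp).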

How the data were processed

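Region lists on build ce11 were used, from 2 biological replicates of 1 group. The deposited signal value is the peak caller's own per region, and the deposited q-values, as −log10 q, were not used for ranking because all 1311 IDR peaks hold 2.11. The authors derived the IDR list from the pooled and replicate lists, per the deposited notes. The aligner, the caller of the peaks and the cutoff were not given in the sources used here. Depth is unknown, so no counting error could be given.

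Genes came from Ensembl release 115 and sequence from the RefSeq copy of WBcel235. No interval passed a chromosome end (0 cases). Each gene took the strongest region with its summit within 1000 bp of the 5' end of its gene record, checked on simulated peaks. A summit could count for several genes. The members and lists were chosen with earlier results of these data known. No test was run on the gene group. Genes named were those with an IDR summit or a region among the 1311 strongest of a replicate, the 5 of next highest pooled signal, the strongest of each role, genes sharing their summits, pathway genes with an IDR summit, genes with no region, ztf-7 and unc-119; further genes of the group were added to account for all of them. Alternatives were windows of 500 and 2000 bp, the upper 50% of IDR peaks, interval overlap, transcript 5' ends, nearest 5' end only, each replicate alone, support in both replicates at 1 bp or 50% reciprocal overlap, and other numbers of strongest regions. Autosomal genes only, and leaving out 6 genes known for other processes, were added after seeing the data. Lists on ce10 were not used. The tools were pysam 0.24.0, matplotlib 3.10.9, scipy 1.17.1, pandas 2.3.3, numpy 2.4.6 and Python 3.11.15.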

Additional observations from a re-analysis of the deposited data

How the results depend on the processing

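No paired analysis was possible because there was 1 group. The count of genes with an IDR summit, 5 of 44, was 4 or 5 under every alternative run. The 500 bp window dropped cye-1 and the 50% reciprocal overlap with both replicates dropped pcn-1. With the strongest regions of 1 replicate in place of the IDR list the count was 5 in each, but cdc-7 replaced cye-1 without replicate 1 and cdc-6 replaced cdc-14 without replicate 2. All 5 peaks were in the upper 50% of the IDR list and all 5 genes were the nearest coding 5' end. The share of all coding genes, 5.61% (exact binomial 95% interval 5.29 to 5.94), was 4.35% and 7.96% with the 500 and 2000 bp windows, 2.91% in the upper 50%, 5.95% with interval overlap, 4.15% with nearest ends only, 4.73% with reciprocal overlap, and 5.13% to 5.42% with 1 replicate left out. The interval treats genes as independent draws, although 846 peaks gave these calls and a summit could count for several genes. It does not cover the spread between replicates or between these settings. The median percentile of the group among coding genes by strongest pooled region, with genes without a region tied at the bottom, was 48.1. It was 34.3 with the 500 bp window, 64.4 over genes with a region, 46.9 with transcript 5' ends and 73.5 with the 2000 bp window. Without replicate 1 it was 45.7, and without replicate 2 it was 76.6. Since 22 of the 44 genes had a pooled region, the 48.1 lies midway between the tied value, 29.9, and the gene with the weakest region. It therefore describes no gene, and such a median moves sharply when the share of genes with a region passes 50%. Other causes were not tested. The genes among the strongest of both replicates numbered 3, and 4 with the 2000 bp window or with 2622 regions. The median summit distance at the 5 IDR peaks, 245 bp, was 206 bp with the 500 bp window, which leaves cye-1 out.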
